A study of Homo sapiens with 10 samples.

Results

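Chromate is an anion of the same shape and charge as sulfate, and it enters cells through the carriers that exchange sulfate and other anions across the membrane. Inside the cell, sulfate is joined to ATP by the PAPS synthases to make PAPS (3'-phosphoadenosine 5'-phosphosulfate), the donor for all sulfotransferases, which place sulfate on proteoglycans, proteins, lipids and steroids. The 10 genes described here are 4 members of the SLC26 family of anion exchangers (SLC26A1, SLC26A2, SLC26A6 and SLC26A11), the sodium-dependent sulfate carrier SLC13A4, 3 members of the SLC4 family of bicarbonate carriers (SLC4A2, SLC4A3 and SLC4A7) and both PAPS synthases (PAPSS1 and PAPSS2). They were chosen by symbol from 28869 rows of the table of intensities, and each of the 10 had 1 row of its own (1 row is 1 transcript cluster of the array). The rule goes by gene name, and the genes were proposed with earlier results of these data known.

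The arrays held RNA of BEAS-2B, a widely used immortalized line from human bronchial epithelium, and of lines derived from it. The Cr_small and Cr_large lines were expanded from small and large colonies that cells formed over 3 weeks in soft agar, after 30 days in potassium chromate at 0.5 μM. The control lines were grown from colonies that arose without chromate, and the parental BEAS-2B cells were not passed through agar. Cr_small, Cr_large and control have 3 lines each and the parental cells have 1 array, so that 10 arrays were measured. Each line came from 1 colony, no repeat of the exposure is described, and the p-values measure the spread between lines. The labels give 1 exposure text to all arrays, so the titles set the groups. The medians of the 10 arrays lay from 5.82 to 5.90 on the log2 scale. KRT8 and KRT18, keratins of simple epithelia, averaged 12.45 and 12.16 on the log2 scale in the 6 Cr lines and 11.70 and 11.34 in the control lines (1.68-fold and 1.77-fold higher, adjusted p = 0.00505 and 0.00188 from limma), whereas EPCAM, CDH1 and KRT5, also markers of epithelium, lay under the median of all values (5.86). The mean level of the 6 epithelial markers measured ranged from 7.58 to 8.51 in the Cr lines and from 7.36 to 7.48 in the control lines, and the part of this difference in the results below was not tested. The sixth of them, KRT19, spread most, from 5.79 to 10.07 in the Cr lines and from 6.07 to 6.27 in the control lines, and did not pass the test. Of 3 endothelial markers and 3 leukocyte markers, only CD14 lay above that median, and of 5 fibroblast markers 2 did.

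All levels are log2 intensities and the comparisons are differences of their means. The Cr_small and Cr_large means, averaged (the 6 Cr lines), were set against the control lines, each Cr group was set against the control lines, and the Cr_large lines were set against the Cr_small lines. Genes are called changed where limma, adjusted over all rows, gave p under 0.05. Levels of different genes are not compared, because probes differ in their response.

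Of the 10 genes, 3 were lower in the 6 Cr lines than in the control lines and none was higher. PAPSS1 fell 2.09-fold, SLC26A2 1.64-fold and SLC4A7 1.35-fold. Over all rows, 11.0% changed in this comparison, 5.72% lower and 5.33% higher. The 6 Cr lines did not overlap the 3 control lines in 4 of the 10 genes, and the same was seen in 16.7% of all rows. The median log2 difference of the 10 genes was -0.17, and that of all rows was 0.01. Of the 10 genes only SLC13A4 had a mean under the median of all values, and differences are narrowed at low levels. In RNA of whole cultures, fewer cells that express a gene and less of its RNA in each cell cannot be told apart.

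**Figure D1:**
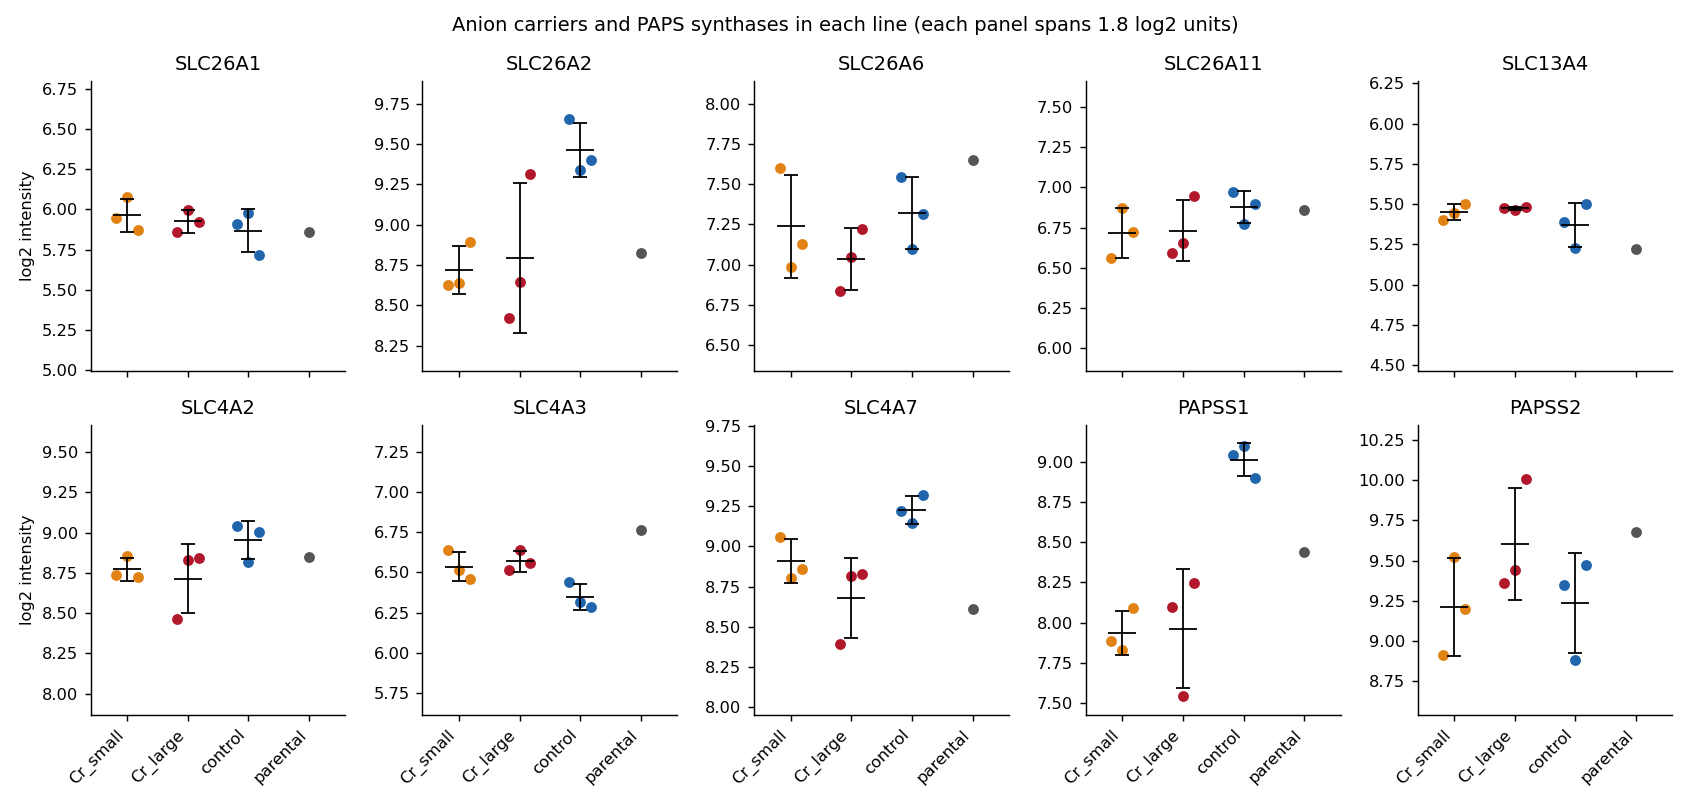
Log2 intensity of the 10 genes in each Cr_small, Cr_large and control line and in the parental cells (points, 1 per array), with bars for the group mean ± SD over 3 lines. The PAPSS1 points of the 6 Cr lines lie from 7.54 to 8.25, below the parental array at 8.44, and the control lines lie from 8.90 to 9.09.

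PAPSS1, a PAPS synthase found in most tissues, showed the largest difference among the 10 genes. Its levels were 7.89, 7.83 and 8.09 in Cr_small, 8.09, 7.54 and 8.25 in Cr_large and 9.04, 9.09 and 8.90 in the control lines. All 6 Cr lines were below all 3 control lines, with the lowest level in Cr_large 2. By limma the 6 Cr lines were lower with a log2 difference of -1.06 ± 0.15 (standard error, adjusted p = 0.00375). The difference was -1.07 for Cr_small (adjusted p = 0.00926) and -1.05 for Cr_large (adjusted p = 0.0102). The parental array stood at 8.44, above all 6 Cr lines and below all 3 control lines. The Cr lines averaged 0.49 below the parental array and the control lines 0.57 above it. This order was seen in 1.69% of all rows and in no other of the 10 genes. The comparison of the Cr lines with the control lines passed the test without any 1 of the 9 lines, at a fold from 1.94 to 2.19. With the t-test of the methods after Benjamini-Hochberg the Cr_large lines alone did not pass (adjusted p = 0.155).

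PAPSS2, the other PAPS synthase, makes the same product and is the form that cartilage depends on. It did not pass the test. Its levels were 8.92, 9.52 and 9.20 in Cr_small, 9.36, 9.44 and 10.00 in Cr_large, 9.35, 8.88 and 9.47 in the control lines and 9.68 in the parental cells. Cr and control lines overlapped, with a log2 difference of 0.17 (95% interval from -0.29 to 0.63). Of the 9 lines, only Cr_large 3 was above the parental array. The Cr_large lines averaged 0.39 above the Cr_small lines, a difference that did not pass the test (95% interval from -0.14 to 0.92).

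SLC26A2 carries sulfate into cells for the sulfation of proteoglycans, and its loss causes chondrodysplasias. The Cr_small lines held it at 8.63, 8.64 and 8.89, the Cr_large lines at 8.42, 8.64 and 9.31 and the control lines at 9.66, 9.34 and 9.40. Cr_large 3 was close to the lowest control line, and the other 5 Cr lines were below 8.90. Over the 6 Cr lines limma gave a log2 difference of -0.71 ± 0.18 (standard error, adjusted p = 0.0468). Neither Cr group passed the test alone, at -0.75 in Cr_small (adjusted p = 0.0762) and -0.67 in Cr_large (adjusted p = 0.111). The parental cells stood at 8.83, near the mean of the Cr lines (8.76 ± 0.31, SD of 6 lines), so that the control lines were 0.64 above the parental array and the Cr lines 0.07 below it. The call was lost when any line other than Cr_large 3 was left out (adjusted p from 0.0571 to 0.167), and without Cr_large 3 it was kept (adjusted p = 0.00390) and both Cr groups passed alone (adjusted p = 0.0114 in Cr_small and 0.00929 in Cr_large). With the t-test of the methods after Benjamini-Hochberg it did not pass (adjusted p = 0.0788).

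SLC4A7, a sodium bicarbonate cotransporter that brings base into the cell, was at 9.06, 8.80 and 8.86 in the Cr_small lines, at 8.39, 8.81 and 8.83 in the Cr_large lines and at 9.22, 9.15 and 9.32 in the control lines. All 6 Cr lines were below the control lines, Cr_small 1 by the least and Cr_large 1 by the most. By limma the log2 difference was -0.43 ± 0.11 (standard error, adjusted p = 0.0392). It was -0.55 in the Cr_large lines (adjusted p = 0.0369) and -0.32 in the Cr_small lines, which did not pass the test (adjusted p = 0.181). The parental cells stood at 8.61, below 5 of the 6 Cr lines and below every control line. The control lines were 0.61 and the Cr lines 0.18 above the parental array. The call was lost without any of the 3 control lines, without Cr_small 2 or without Cr_small 3 (adjusted p from 0.0727 to 0.145). The Cr_large call was lost without any of the 3 control lines, Cr_small 3 or Cr_large 2 (adjusted p from 0.0557 to 0.124) and, with the t-test of the methods after Benjamini-Hochberg, the calls over the 6 Cr lines and in Cr_large were lost as well (adjusted p = 0.107 and 0.217).

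The promoters of these 3 lower genes are shown because these are the members that were called. Each sequence is the 250 bases before the start of the gene in RefSeq (GRCh38.p14, strand of the gene), and capitals mark the matches to 4 motifs on either strand. These are the GC box (GGGCGG), the cores of the antioxidant response element (TGACNNNGC) and of the hypoxia response element (ACGTG), and the TATA box (TATAAA). PAPSS1 lies at chr4:107720235-107720484 on the minus strand, SLC26A2 at chr5:149960508-149960757 on the plus strand and SLC4A7 at chr3:27484385-27484634 on the minus strand.
PAPSS1: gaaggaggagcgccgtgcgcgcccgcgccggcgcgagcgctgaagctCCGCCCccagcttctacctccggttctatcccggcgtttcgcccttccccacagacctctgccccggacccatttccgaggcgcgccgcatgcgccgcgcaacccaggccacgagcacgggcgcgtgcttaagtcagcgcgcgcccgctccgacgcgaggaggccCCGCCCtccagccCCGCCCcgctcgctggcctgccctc
SLC26A2: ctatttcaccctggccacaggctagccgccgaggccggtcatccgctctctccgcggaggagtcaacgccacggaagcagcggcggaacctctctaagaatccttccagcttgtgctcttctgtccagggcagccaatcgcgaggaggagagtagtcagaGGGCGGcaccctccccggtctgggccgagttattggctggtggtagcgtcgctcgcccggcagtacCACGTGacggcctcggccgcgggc
SLC4A7: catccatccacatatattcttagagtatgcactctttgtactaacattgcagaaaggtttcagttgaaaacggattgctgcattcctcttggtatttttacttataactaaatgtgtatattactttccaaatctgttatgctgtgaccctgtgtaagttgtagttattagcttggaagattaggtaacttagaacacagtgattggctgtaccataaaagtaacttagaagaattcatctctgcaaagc
The PAPSS1 sequence held 3 GC boxes, which began 203, 38 and 25 bases before the start, and 75.2% of its bases were G or C. SLC26A2 held 1 GC box 90 bases before the start and a CACGTG that gives overlapping matches to ACGTG on both strands, with 66.0% G or C. SLC4A7 held none of the 4 motifs in these 250 bases, with 34.8% G or C. Among 27305 promoters of the same length, 41.3% held the GC box, 11.0% the antioxidant core, 18.3% the hypoxia core and 11.4% the TATA box, and the median share of G and C was 57.6%. Of the 10 genes, 8 were matched in the promoter table, and these matches are a description of the letters.

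**Figure D2:**
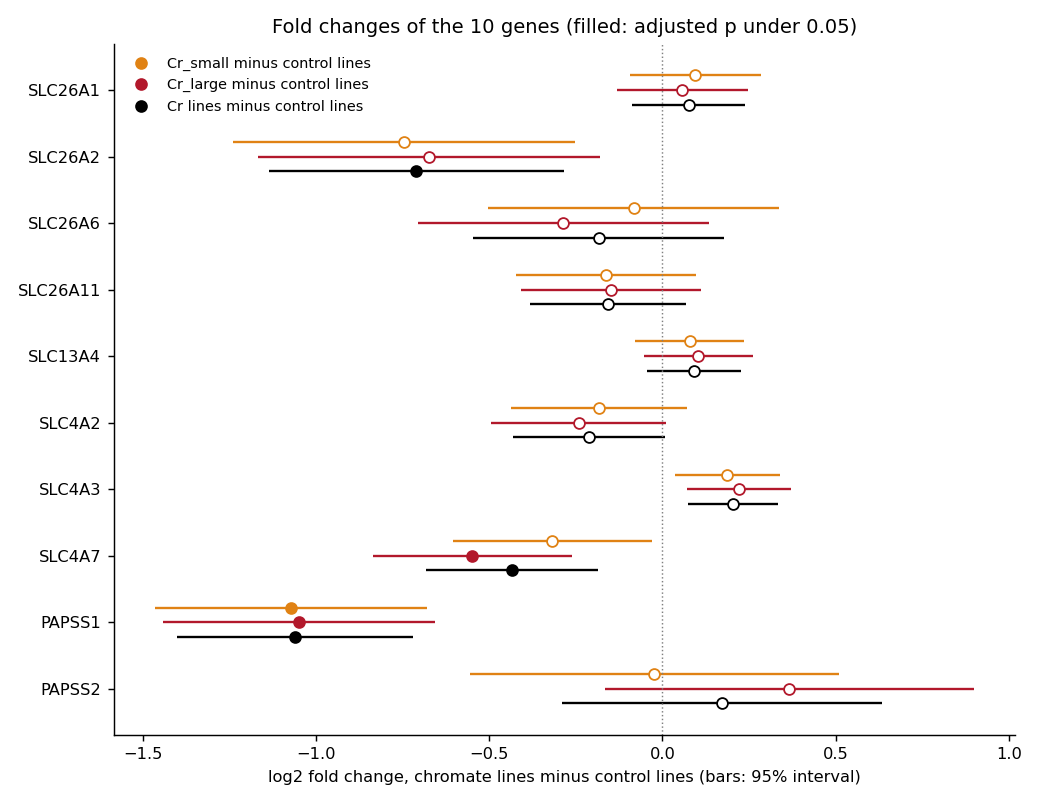
Log2 fold change of each gene in the Cr_small lines, the Cr_large lines and the 6 Cr lines against the 3 control lines (points), with 95% intervals from limma (bars). Filled points passed the test, which PAPSS1 did in all 3 comparisons, SLC4A7 in the Cr_large lines and the 6 Cr lines, and SLC26A2 in the 6 Cr lines.

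The other 3 members of the SLC26 family did not pass the test. SLC26A6, an exchanger of chloride with bicarbonate and oxalate, was at 7.60, 6.98 and 7.13 in the Cr_small lines, at 6.83, 7.05 and 7.22 in the Cr_large lines, at 7.54, 7.10 and 7.32 in the control lines and at 7.65 in the parental cells. Every line was below the parental array, as was so for 11.9% of all rows. The Cr and control lines overlapped (log2 difference -0.18, 95% interval from -0.55 to 0.18). SLC26A11, a sodium-independent sulfate carrier, was at 6.56, 6.87 and 6.72 in the Cr_small lines, at 6.59, 6.66 and 6.95 in the Cr_large lines, at 6.97, 6.77 and 6.89 in the control lines and at 6.86 in the parental cells. Its log2 difference was -0.16 (95% interval from -0.38 to 0.07). SLC26A1, which exchanges sulfate and oxalate in liver and kidney, was at 5.94, 6.08 and 5.87 in the Cr_small lines, at 5.86, 6.0 and 5.92 in the Cr_large lines, at 5.91, 5.98 and 5.72 in the control lines and at 5.86 in the parental cells. These levels are near the median of all values, where the constant of 16 added before the log narrows differences, and the log2 difference was 0.08 (95% interval from -0.09 to 0.24).

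SLC13A4, the sodium-dependent sulfate carrier of placenta and brain, lay under the median of all values. It was at 5.40, 5.45 and 5.50 in the Cr_small lines, at 5.47, 5.46 and 5.48 in the Cr_large lines, at 5.39, 5.23 and 5.50 in the control lines and at 5.22 in the parental cells. The Cr and control lines overlapped (log2 difference 0.09, 95% interval from -0.04 to 0.23). All 9 lines were above the parental array, as they were in 14.0% of all rows.

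SLC4A2 and SLC4A3 are anion exchangers that trade chloride for bicarbonate, SLC4A2 in most tissues and SLC4A3 mainly in heart and brain. SLC4A2 was at 8.74, 8.85 and 8.72 in the Cr_small lines, at 8.47, 8.83 and 8.84 in the Cr_large lines, at 9.04, 8.82 and 9.01 in the control lines and at 8.85 in the parental cells. Control 2 lay among the Cr lines. The log2 difference of -0.21 did not pass the test (95% interval from -0.43 to 0.01, adjusted p = 0.220 from limma). SLC4A3 was at 6.64, 6.51 and 6.46 in the Cr_small lines, at 6.51, 6.64 and 6.56 in the Cr_large lines and at 6.44, 6.32 and 6.29 in the control lines. All 6 Cr lines were above the control lines, with Cr_small 3 close to control 1. Its log2 difference of 0.20 (standard error 0.06) missed the threshold (adjusted p = 0.0569 from limma). The unadjusted t-test of the methods called it higher over the 6 Cr lines and in Cr_large. The parental array, at 6.77, was above all 9 lines, as it was in 11.9% of all rows.

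Each Cr group alone gave fewer calls than the 6 lines. In the Cr_small lines 1 of the 10 genes was lower (PAPSS1) and none was higher, where 8.26% of all rows were called, 4.47% lower and 3.79% higher. In the Cr_large lines 2 were lower (PAPSS1 and SLC4A7) and none was higher, where 7.44% of all rows were called, 4.11% lower and 3.33% higher. SLC26A2, SLC4A3, SLC4A7 and PAPSS1 did not overlap the control lines in either group, as was so for 28.2% of all rows in Cr_small and 26.1% in Cr_large. Both comparisons share the 3 control lines. The difference between the groups was tested directly in the Cr_large against the Cr_small lines, where limma called none of the 10 genes and 0% of all rows after adjustment. Without adjustment its p was under 0.05 in 1266 of 28869 rows, a share of less than 0.05, the 10 genes not among them. The groups overlapped in all 10 genes, whereas they did not in 8.58% of all rows. The t-test of the methods also called none of the 10 genes in this comparison, before or after adjustment. The largest of these differences were those of PAPSS2 (0.39, 95% interval from -0.14 to 0.92) and SLC4A7 (-0.23, 95% interval from -0.52 to 0.06). For PAPSS1 the difference was 0.02 (95% interval from -0.37 to 0.42).

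The parental cells have no replicate, and their position among the lines is a description. Across the 10 genes the group means differed from the parental array by a median of 0.23 in the Cr_small lines, 0.13 in the Cr_large lines and 0.37 in the control lines, whatever the direction. Over all rows these medians were 0.10, 0.10 and 0.09. Rows at low levels, where differences are narrowed, are more frequent among all rows than among the 10 genes, so these medians are not on a like footing. In the order of levels, the control lines stood highest in SLC26A2, SLC4A7 and PAPSS1, with the parental cells among the Cr lines in SLC26A2, near the lowest Cr lines in SLC4A7 and between the groups in PAPSS1. In SLC4A3 the order was reversed, with the parental cells highest, the Cr lines next and the control lines lowest. In each of these genes the Cr_small and Cr_large lines overlapped, and neither group overlapped the control lines. In the rest of the 10 genes the Cr lines overlapped the control lines as well.

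The genes lie on 7 chromosomes, and both PAPSS1 (chr4:107613666-107720234) and SLC26A1 (chr4:978991-993404) are on chromosome 4. SLC26A6 (chr3:48625723-48635461) and SLC4A7 (chr3:27372723-27484384) are on chromosome 3, and SLC13A4 (chr7:135681231-135728186) and SLC4A2 (chr7:151058200-151076527) on chromosome 7. SLC26A2 (chr5:149960758-149987400), SLC26A11 (chr17:80220427-80253500), SLC4A3 (chr2:219627630-219641971) and PAPSS2 (chr10:87659878-87747705) are each alone on theirs. Because neighbouring genes differed together in parts of the genome, each gene was set beside the 20 measured genes on either side of it in the gene order of GRCh38.p14 (34 genes in all for SLC26A1, near the chromosome end). The 40 neighbours of PAPSS1, from BANK1 to FAM241A, differed by a median of -0.17 on the log2 scale, with quartiles at -0.43 and 0.02. Of these neighbours 14 were lower in the Cr lines and none was higher. The 22 of them above the median level had a median of -0.42. No neighbour fell by more than PAPSS1. TET2, a DNA demethylase, fell by 0.85 and TBCK by 0.81 on the log2 scale, and CASP6, a caspase, by 0.68. These genes were named after their values were seen. On the whole of chromosome 4, 196 of 708 genes were lower and 21 higher, which is 27.7% lower, against 7.59% lower of 18349 genes on all chromosomes. The part of this shift in the fall of PAPSS1 was not tested.

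**Figure D3:**
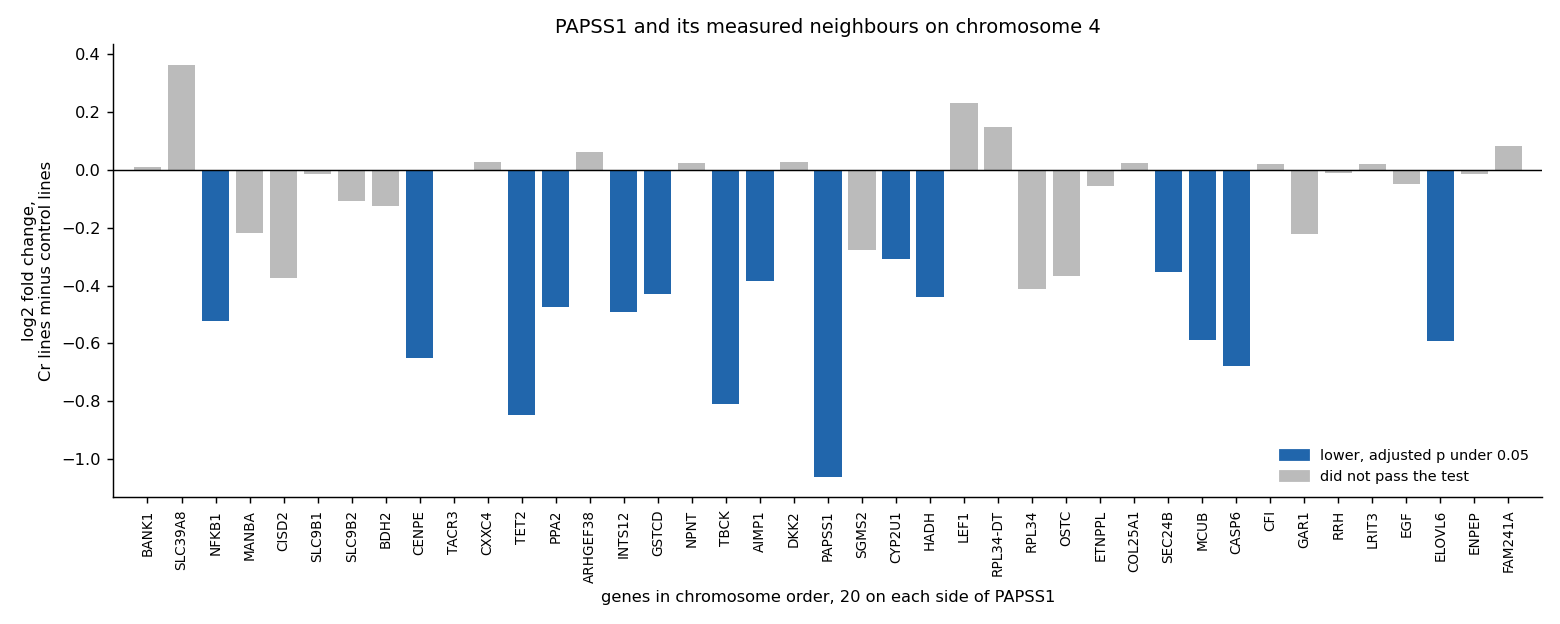
Log2 fold change, the 6 Cr lines minus the 3 control lines, of PAPSS1 and the 20 measured genes on each side of it in chromosome order (bars from 0, blue where lower at an adjusted p under 0.05). PAPSS1 is the lowest bar at -1.06, and 14 of its 40 neighbours are blue.

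SLC26A2 and SLC4A7 were lower among neighbours whose median was near 0. SLC26A2 itself was at -0.71, and the 40 genes around it on chromosome 5 had their median at 0.03 and their quartiles at -0.02 and 0.14, with 2 lower and 1 higher. SLC4A7 was at -0.43, and around it on chromosome 3 the median was -0.03 and the quartiles were -0.23 and 0.04, with 4 lower and 1 higher. Over the neighbours above the median level, the median was 0.10 around SLC26A2 (21 genes) and -0.13 around SLC4A7 (27 genes). The 34 neighbours of SLC26A1 on chromosome 4 had 5 lower and 3 higher, with a median of -0.04. None of the 40 neighbours of PAPSS2 on chromosome 10 changed, nor any of the 40 around SLC26A6 on chromosome 3.

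**Figure D4:**
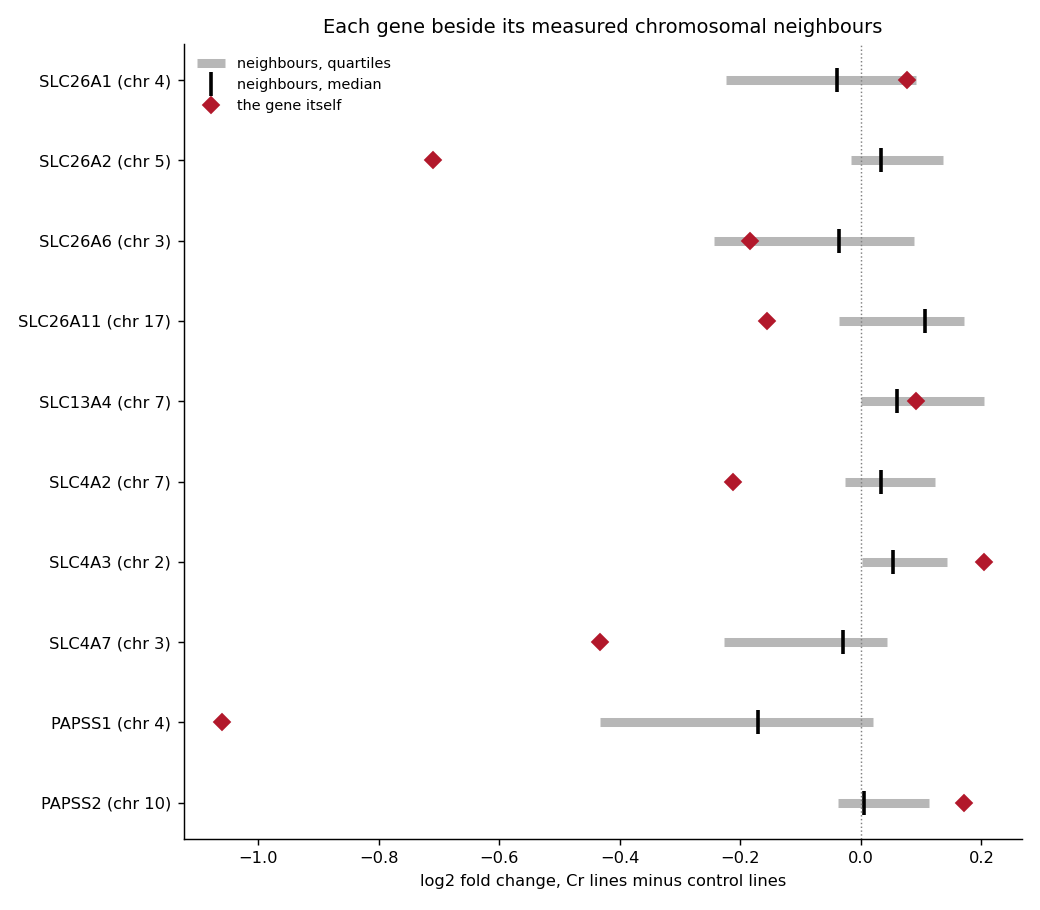
Log2 fold change of each of the 10 genes, the 6 Cr lines minus the control lines (diamonds), beside the median and quartiles of its measured chromosomal neighbours (bars and ticks). The quartiles of the PAPSS1 neighbours, -0.43 and 0.02, reach the farthest below 0, and PAPSS1, SLC26A2 and SLC4A7, like SLC26A11 and SLC4A2, lie to the left of the lower quartile of their neighbours.

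The genes whose pattern over the 10 arrays was most like that of PAPSS1, by the root mean square difference of log2 levels centred on each gene's mean, were DDX60, TPM1 and ZNF827 out of 18376 genes compared. The differences were 0.14, 0.15 and 0.15. DDX60 and ZNF827 are on chromosome 4, and TPM1, a tropomyosin, is on chromosome 15. TPM1 was at 9.06 ± 0.30 in the Cr_small lines, 9.14 ± 0.31 in the Cr_large lines and 10.21 ± 0.13 in the control lines (SD of 3 lines each), with 9.66 in the parental cells.

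Other genes of anion transport and sulfur use were set out in 10 lists of 118 genes, of which 109 had a row of their own. Against the control lines, the 6 Cr lines had 7 of them higher and 11 lower. This is 16.5% of the 109, compared with 14.6% of 18349 genes that, like these, had a row of their own and with 11.0% of all rows. Their median log2 difference of 0.03 was near that of all rows (0.01). None of the 6 other SLC26 and SLC13 carriers, the 7 other SLC4 carriers, the 9 anion channels or the 10 cytosolic sulfotransferases passed the test. All 6 of these SLC26 and SLC13 carriers and 9 of the cytosolic sulfotransferases lay under the median of all values (5.86) in every group mean. The same was so for 4 of the SLC4 carriers and 4 of the channels. At such levels the constant of 16 added before the log narrows differences. A call was still possible there, as in the sulfatase ARSD, which also lay under the median in every group mean. With 16 taken off before log2, 19 of the 109 genes passed the test, 8 higher and 11 lower. Of the 6 phosphate carriers, SLC20A1, a sodium-phosphate cotransporter, fell 1.34-fold (adjusted p = 0.00672 from limma) and the other 5 did not pass the test. It was at 10.20 in the Cr lines and 10.62 in the control lines, both above the parental array at 9.70. Of the 18 genes that changed in these lists, the mean of the Cr lines was the nearer to the parental array in 10 and that of the control lines in 8, and the parental array lay between both means in 9. The 10 were SLC20A1, SLC25A11, SLC25A14, CHST3, CHST11, CHST15, ARSD, GALNS, IDS and GOT1. The 8 were SLC25A30, HS6ST1, CHST2, CHST10, ARSK, SULF2, ETHE1 and SQOR. Rises and falls in these lists are differences from the control lines, not from the parental cells.

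Of 22 Golgi sulfotransferases that act on chondroitin, keratan, galactose and tyrosine, 2 were higher and 3 lower. This is 22.7%, beside 14.6% of the 18349 genes with a row of their own. CHST2, which sulfates N-acetylglucosamine, rose 4.89-fold and was at 9.12 in the 6 Cr lines and 6.83 in the control lines (adjusted p = 0.00232 from limma). CHST10, which makes the HNK-1 epitope, rose 1.65-fold. CHST11, a chondroitin 4-O-sulfotransferase, fell 2.68-fold (adjusted p = 0.000394 from limma), CHST3, a chondroitin 6-O-sulfotransferase, 1.62-fold (7.88 in the Cr lines and 8.58 in the control lines, with 7.68 in the parental cells) and CHST15, which adds a further sulfate to chondroitin, 1.47-fold. The calls of CHST3 and CHST15 ended in 3 and 2 of 20 alternatives. Among 14 heparan sulfotransferases 1 changed, HS6ST1, a 6-O-sulfotransferase, which rose 1.48-fold (adjusted p = 0.00161 from limma).

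Of 18 sulfatases and their activators, 2 were higher and 3 lower. This is 27.8%, beside 14.6% of the genes with a row of their own. SULF2, which removes 6-O-sulfate from heparan outside the cell, fell 2.71-fold, IDS, the lysosomal iduronate 2-sulfatase, 2.07-fold and ARSK, a lysosomal sulfatase, 1.56-fold. ARSD rose 1.44-fold and GALNS, a lysosomal galactosamine sulfatase, 1.39-fold. GALNS was at 7.96 in the Cr lines and 7.49 in the control lines, with 8.05 in the parental cells.

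Among 10 genes listed around the formation of sulfate from sulfur amino acids and sulfide, not all of which form sulfate, 1 was higher and 2 lower. This is 30% of a short list, beside 14.6% of the genes with a row of their own. GOT1, the cytosolic aspartate aminotransferase, rose 1.90-fold. SQOR, which oxidizes sulfide in mitochondria, fell 2.12-fold, with overlap between Cr and control lines, and ETHE1, a persulfide dioxygenase of mitochondria, 1.54-fold. The calls of SQOR and ETHE1 ended in 6 and 7 of the 20 alternatives. Of 7 PAPS carriers, PAP phosphatases and mitochondrial anion carriers, the mitochondrial carrier SLC25A11 rose 1.41-fold, and SLC25A14 and SLC25A30 fell 1.61-fold and 1.45-fold. These are 42.9% of the 7, beside the same 14.6%. The calls of SLC25A30 and SLC25A11 ended in 9 and 3 of the 20 alternatives, and that of GALNS in 1. SLC35B2 and SLC35B3, which take PAPS into the Golgi, did not pass the test (log2 differences of 0.04 and -0.11).

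Several of the 18 genes also had neighbours that changed in the same direction. Among the genes that fell, 13 of 40 neighbours were lower and 1 higher around SLC25A30 on chromosome 13, 12 and 1 around SQOR on chromosome 15, 11 and 1 around ARSK on chromosome 5, 11 and none around IDS and 10 and 1 around SLC25A14, both on chromosome X. Among those that rose, 11 of 40 neighbours were higher and none lower around GALNS on chromosome 16, 9 and none around CHST2 on chromosome 3, and 8 and 1 of 32 around ARSD on chromosome X. These genes were named after their counts were seen. For comparison, of 18349 genes on all chromosomes 1392 were lower and 1285 higher. Around the other 10 genes at most 6 neighbours were higher and at most 3 lower. More were higher than lower around SLC25A11 (5 and none), CHST10 (5 and 1), HS6ST1 (6 and 3) and GOT1 (4 and none), which rose. More were lower than higher around CHST3, CHST11 and CHST15, which fell. Around ETHE1, which also fell, 5 were higher and 3 lower. Around SLC20A1 and SULF2 both counts were 3. The part of these shifts in the changes of the genes was not tested.

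**Figure D5:**
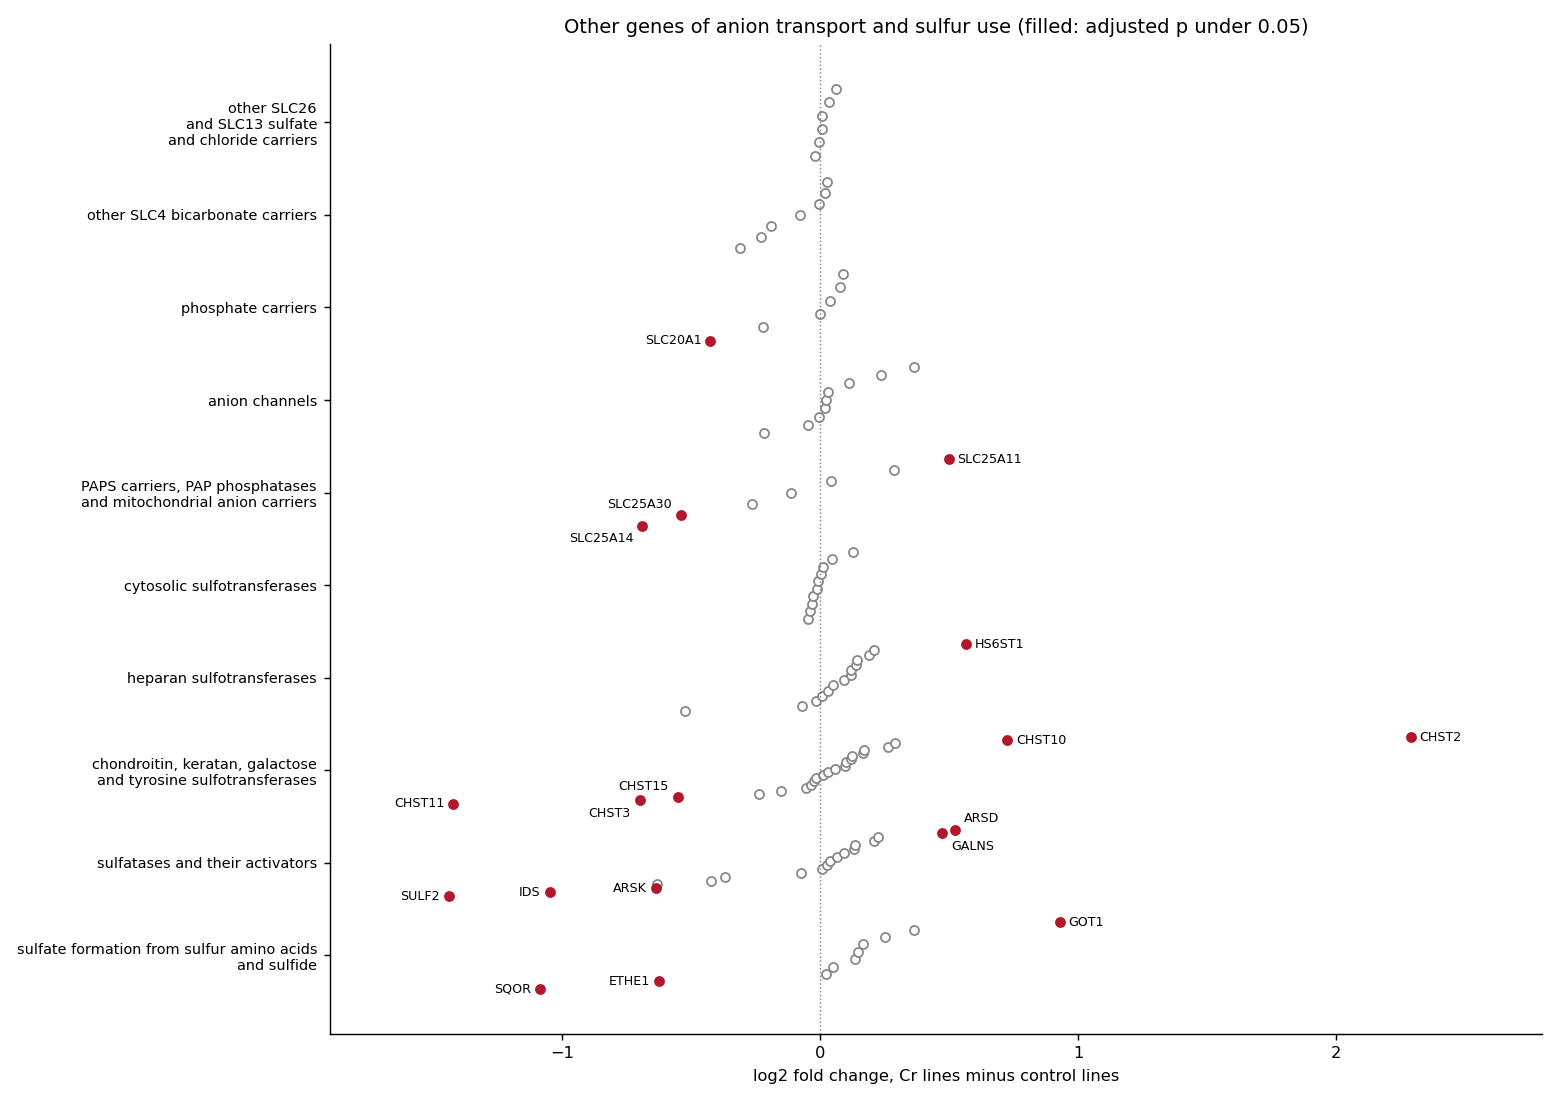
Log2 fold change, the 6 Cr lines minus the 3 control lines, of 109 other genes in 10 lists of anion transport and sulfur use (points, 1 per gene). Filled and named points passed the test, 7 higher and 11 lower, with CHST2 the farthest to the right and SULF2 the farthest to the left.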

How the data were processed

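RNA of 10 arrays (Affymetrix Human Gene 1.0 ST) was measured. The authors summarized the deposited intensities with RMA16 and quantile normalization in GeneSpring v11. They are linear, and the baseline transformation that the methods name is not seen in them. Their log2 was taken here. The 28869 rows comprise 19310 with 1 gene symbol, 1752 with several and 7807 without. limma 3.58.1 (R 4.3.3) was fitted with the means of 4 groups to all rows (6 residual degrees of freedom), with Benjamini-Hochberg adjustment over all rows. The parental array had no replicate and no test. The precision is limited by 3 lines in a group. On simulated data the fit for the Cr lines against the control lines called 48 of 67 rows changed 1.5-fold, 62 of 67 changed 2-fold and 65 of 66 changed 5-fold, among 28869 rows. Only these rows were changed there, with noise drawn independently for each row, whereas 11.0% of rows were called in the data. The simulated shares therefore do not measure how many changes the fit finds on these arrays. All 10 genes are named, and in each list up to 3 called genes in each direction with the largest change. The genes and lists were chosen with earlier results of these data known. PAPSS1, CHST2, CHST11, IDS, SULF2 and SQOR also stand in a list that the study chose on these arrays, so they are no independent evidence. Genes without a row of their own, such as SLC26A7, CLCN2 and CBS, were not analysed here. Positions, gene order and promoters are those of RefSeq (GRCh38.p14). Alternatives changed the test, filter, scale, normalization and lines used.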

Additional observations from a re-analysis of the deposited data

Results flagged for a closer look

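SLC4A2, a chloride and bicarbonate exchanger, was at 8.47 on the log2 scale in Cr_large 1, far below the other 5 Cr lines, which lay from 8.72 to 8.85. The gap to the next line was 0.666 of the whole range of the 6 Cr lines. About 1 in 20 groups is flagged in this way by chance.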

How the results depend on the processing

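Of the 10 genes, 3 changed in the 6 Cr lines, and this count was 4 (3 lower, and SLC4A3 higher) with the unadjusted t-test of the methods, 1 with that test after Benjamini-Hochberg, 1 with a replicate block and 1 to 3 when 1 line was left out. In the Cr_small lines the count of 1 became 3 with the unadjusted t-test, 2 with trend and robust moderation, 2 with only the groups compared in the fit, 2 without the dimmest 25% of rows, 2 with 16 taken off before log2, and 1 to 2 when 1 line was left out. In the Cr_large lines the count of 2 became 3 (2 lower, and SLC4A3 higher) with the unadjusted t-test, 0 with the adjusted t-test, 1 with only the groups compared, 1 with the replicate block, and 1 to 3 when 1 line was left out. In the Cr_large against the Cr_small lines it was 0 throughout. The replicate numbers did not pair the lines (9 pairs of residuals, correlations from -0.145 to 0.0984), and with the block PAPSS1 was kept, while SLC26A2 and SLC4A7 had adjusted limma p of 0.0577 and 0.0800. Quantile normalization of the log2 values again ended the call of SLC26A2 (limma, p adjusted over all rows = 0.0518). Over the other lists 18 genes changed, and 12 to 27 did so under the alternatives. With all lines, the largest difference whose direction turned was 0.17, that of PAPSS2 in the Cr minus control lines. Directions turned only in differences that were not called, when 1 line was left out. In the Cr_large minus Cr_small lines the log2 differences then ranged from -0.12 to 0.23 for PAPSS1, from -0.000332 to 0.050 for SLC13A4, from -0.083 to 0.019 for SLC26A1, from -0.093 to 0.090 for SLC26A11, from -0.19 to 0.26 for SLC26A2, from -0.12 to 0.065 for SLC4A2 and from -0.00477 to 0.085 for SLC4A3. They ranged from -0.0055 to 0.29 for PAPSS2 in the Cr minus control lines, from -0.20 to 0.13 for PAPSS2 and from -0.26 to 0.044 for SLC26A6 in the Cr_small minus control lines, and from -0.017 to 0.11 for SLC26A1 in the Cr_large minus control lines. The cause of these changes was not tested.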
